A study of Mus musculus with 36 samples.

Results

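The uninduced B cells of the 3 constructs are the starting point of B cell to macrophage transdifferentiation (BMT), and they were chosen by label as every library taken before estradiol (E2) was added, 6 of the 36 libraries. They comprise 2 replicates each of cells carrying C/EBPα WT, C/EBPα R35A or C/EBPα R35K. The cells were primary B cells selected on magnetic beads from the bone marrow of C57BL/6J mice, with females and males balanced and the age not given in the sources used here. They were grown with IL-7 on S17 stroma. A retrovirus then introduced C/EBPα fused to the estrogen receptor together with human CD4 (hCD4). The infected cells were kept on embryonic fibroblast feeders, and hCD4+ cells were afterwards enriched on magnetic columns. The methods for induction describe feeders treated with mitomycin C. R35A replaces arginine 35 of C/EBPα by alanine and R35K replaces it by lysine. All 3 groups, the WT controls included, therefore carry the retrovirus, the hCD4 marker and a C/EBPα fusion, and no group holds uninfected cells. The paper describes feeder removal by adherence for its phagocytosis assay and feeder depletion for its chromatin accessibility assay. Its RNA sequencing methods name no such step. The time point is 0 hr post induction (hpi).

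Bone marrow B cell development passes from pro-B cells, which rearrange the immunoglobulin heavy chain, to large cycling pre-B cells, which display that chain with a surrogate light chain, and then to small resting pre-B cells, which rearrange the light chain. Igll1 (λ5) and Vpreb1 encode the surrogate light chain and Cd79a and Cd79b the signalling arms of the pre-B cell receptor. Ebf1, Tcf3 (E2A) and Pax5 are the transcription factors that set and hold B cell identity, and Rag1 with Rag2 encodes the recombinase. IL-7 is the cytokine that keeps pro-B and large pre-B cells dividing in culture.

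The promoters of 4 of the stage genes are shown because these genes define the pre-B state described here and because each window holds an E box of the type bound by E2A proteins. The sequences are RefSeq windows of the GRCm38.p6 (mm10) build, the 250 bases before the annotated start of each gene, read 5′ to 3′ on the strand of the gene, and the capitals mark the letters CAGGTG or its reverse complement CACCTG.
Igll1, chr16:16863986-16864235, minus strand: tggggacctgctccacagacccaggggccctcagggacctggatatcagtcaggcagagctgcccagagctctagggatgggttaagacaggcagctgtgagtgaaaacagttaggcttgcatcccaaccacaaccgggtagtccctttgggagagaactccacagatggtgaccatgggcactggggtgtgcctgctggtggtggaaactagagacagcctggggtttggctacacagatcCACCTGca
Vpreb1, chr16:16869256-16869505, minus strand: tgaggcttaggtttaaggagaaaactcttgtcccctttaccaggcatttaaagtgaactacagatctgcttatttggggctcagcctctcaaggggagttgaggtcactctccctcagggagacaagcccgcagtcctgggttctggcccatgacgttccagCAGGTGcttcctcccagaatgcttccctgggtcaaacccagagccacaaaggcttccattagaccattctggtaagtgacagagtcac
Vpreb2, chr16:17980315-17980564, plus strand: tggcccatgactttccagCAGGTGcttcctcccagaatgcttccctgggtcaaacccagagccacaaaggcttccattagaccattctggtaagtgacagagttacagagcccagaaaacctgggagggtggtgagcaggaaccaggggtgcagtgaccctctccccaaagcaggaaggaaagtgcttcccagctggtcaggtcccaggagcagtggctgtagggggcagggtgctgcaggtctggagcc
Rag1, chr2:101649533-101649782, minus strand: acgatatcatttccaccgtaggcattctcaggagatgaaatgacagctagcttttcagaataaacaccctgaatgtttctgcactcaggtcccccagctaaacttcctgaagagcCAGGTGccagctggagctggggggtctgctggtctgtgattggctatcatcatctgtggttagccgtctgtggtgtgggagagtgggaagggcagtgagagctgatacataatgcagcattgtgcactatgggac
The motif lay 8 bases before the start in Igll1, 88 in Vpreb1, 232 in Vpreb2 and 135 in Rag1, counted to its first base on the strand of the gene. The Vpreb1 and Vpreb2 windows share an identical run of 91 bases that holds the motif, so they are not separate examples. Of 23 listed B cell genes, 17 had a promoter record and 10 of these held the motif on either strand, whereas 5657 of all 32851 promoters of this length did (17.2%). The windows of Pax5, Ebf1, Rag2, Dntt, Vpreb3, Btk and Cd72 did not hold these letters. These matches are descriptions of sequence and carry no measurement of binding.

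The 6 libraries held 13044456 to 17271985 counted reads, a spread of 1.32-fold, within a series whose totals reached 23131776. Normalization factors (TMM) lay between 0.998 and 1.003. The median squared difference between replicates over genes with at least 50 counts was 1.217 to 1.438 times that of counting noise (3 pairs), and between libraries of different constructs 1.33 to 1.809 times (12 pairs). No 2 libraries agreed within counting noise, and each was counted as a sample. WT replicate 1 stood apart in 1 respect, since annotated ribosomal RNA made up 0.0842% of its counts against 0.0180 to 0.0231% in the other 5. Levels are given in TPM or CPM. TPM (reads per base of exon, scaled to the same total in each library) compares genes with each other, and CPM (reads of a gene scaled by the library total and TMM) compares 1 gene between libraries.

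Before induction the cells expressed a pre-B programme beside high levels of mitochondrial and translation transcripts. In the 6 libraries 15878 genes had more than 3 counts in every library, with a median of 19.0 TPM, and 68 genes reached a mean of 1000 TPM. The 25 most abundant transcripts made up 14.1 to 14.9% of all TPM. Of these, 8 were encoded by the mitochondrial genome, led by mt-Cytb at 21557 ± 748 TPM (SD, n = 6) and mt-Nd1 at 16070 ± 998. Another 6 encoded ribosomal proteins, and Eef2 and Eef1a1 encode translation elongation factors, at 4584 ± 134 and 4138 ± 194 TPM. mt-Nd6 lies opposite to mt-Nd5, and since the sources do not say which strand was counted, their reads may be mixed.

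The other 9 of the 25 included a B cell gene at rank 5, Ighm, the constant region of the μ heavy chain, at 7268 ± 212 TPM. Cd24a, the heat-stable antigen of developing B cells, ranked 20 at 2726 ± 84.4 TPM. B2m, the light chain of MHC class I, stood at 4099 ± 82.3 TPM and the chaperone gene Hsp90ab1 at 4975 ± 137. The same list held Acta2 (smooth muscle actin, a gene of contractile fibroblasts) at 2829 ± 90.7 TPM, Lgals1 (galectin-1) at 5444 ± 122, S100a6 at 3860 ± 261 and Hmox1 (heme oxygenase-1) at 2268 ± 51.4. Acta2 is a fibroblast marker rather than a B cell gene, and the embryonic fibroblast feeders are described with the other cell types.

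**Figure D1:**
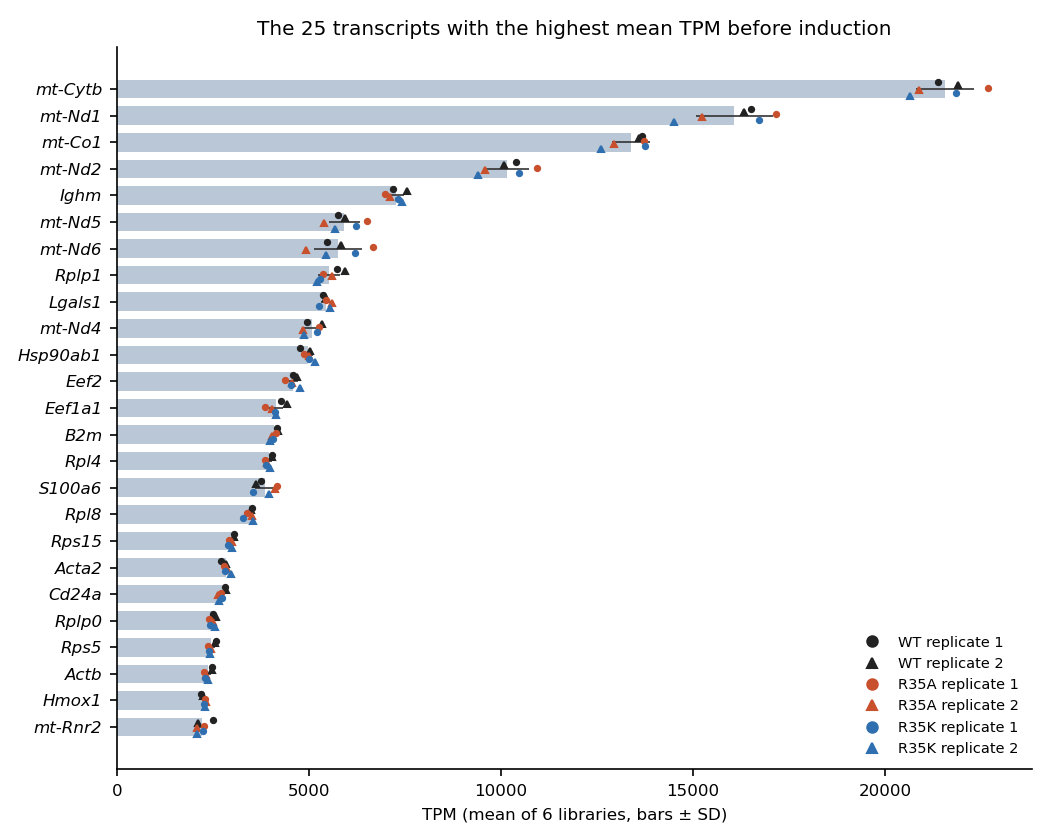
The 25 transcripts with the highest mean TPM in the 6 uninduced libraries, with bars at the mean, lines for the SD and 1 point per library on a linear axis. Ighm, at a mean of 7268 TPM, is the highest transcript of the nuclear genome, and for each transcript the spread over libraries is small beside the difference between the ends of the list.

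All 5 markers that define the starting cells were present in every library. Igll1, one part of the surrogate light chain, had 1165 and 1171 TPM in WT, 1074 and 1102 in R35A, and 1103 and 1127 in R35K. Vpreb1, its partner, had 927 and 925 TPM in WT, 863 and 869 in R35A, and 832 and 901 in R35K. Both ranked among the 100 highest transcripts, at 52 and 93. Pax5, the factor that holds B cell commitment, had 406 and 414 TPM in WT, 382 and 387 in R35A, and 409 and 407 in R35K. Ebf1, which acts upstream of Pax5 in B cell specification, had 178 and 182 TPM in WT, 171 and 169 in R35A, and 179 and 173 in R35K. The order was the same in every library, with Rag1 lowest. Rag1 had 53.1 and 52.2 TPM in WT, 49.6 and 49.4 in R35A, and 52.9 and 52.6 in R35K. Their summed level was 2729 and 2744 TPM in WT, 2539 and 2576 in R35A, and 2575 and 2660 in R35K, a range of 1.081-fold. The label of the cells as pre-induction B cells therefore matches its markers.

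The genes of the pre-B cell receptor and its signalling were measured as a list of 18, and all 18 had more than 3 counts in every library, with a median of 257 TPM against 19.0 TPM over all genes past the same minimum. Cd79b had 1643 and 1721 TPM in WT, 1499 and 1536 in R35A, and 1565 and 1619 in R35K. Cd79a had 901 and 906 TPM in WT, 831 and 820 in R35A, and 855 and 892 in R35K. In both genes the 2 R35A libraries lay below the 2 WT libraries, a difference tested with the other comparisons of constructs. Vpreb3, a chaperone of the receptor's assembly, lay between 1003 and 1111 TPM. The adaptor Blnk lay between 256 and 283 TPM, and the kinases Syk, Btk and Blk between 188 and 304. Vpreb2 had a mean of 177 TPM, but 233 windows of 50 bases, 32.8% of its own and 18.8% of those of Vpreb1, are identical in both, so the reads of the pair cannot be fully told apart.

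B lineage transcription factors were measured as a list of 27, and all 27 had more than 3 counts in every library, 25 of them at a mean of at least 10 TPM. The highest were Pou2af1 (OBF-1, a co-activator of octamer factors) between 696 and 741 TPM, Id3, an inhibitor of E proteins, at 615 ± 19.8, Tcf3 at 401 ± 18.8 and Pax5 at 401 ± 12.9, followed by Ikzf1 (Ikaros) at 295 ± 7.46. Foxo1, which drives Rag transcription, had 102 ± 2.87 TPM. Spi1, which encodes PU.1, the partner of C/EBPα in macrophage differentiation, had 50.5 ± 1.39 TPM, so it was present before induction.

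The 15 genes of V(D)J recombination were all detected. Dntt, the terminal transferase that adds bases to heavy chain junctions and marks the pro-B stage, had 264 and 270 TPM in WT, 270 and 268 in R35A, and 272 and 278 in R35K. Rag2 had a mean of 20.8 TPM, below Rag1 at 51.6. Dntt was thus more abundant than either recombinase gene in every library.

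Genes of the pro-B and large pre-B stage were high, with the exception of the earliest ones. Enpep (BP-1), an antigen of large pre-B cells, had 231 ± 5.64 TPM, Spn (CD43) lay between 130 and 145 and Bst1 (BP-3) between 73.2 and 79.8. Il7r, the receptor chain for the cytokine in the medium, had 47.6 ± 2.09 TPM. Kit and Flt3, the cytokine receptors of pro-B cells and earlier progenitors, had only 8.69 ± 0.69 and 0.73 ± 0.15 TPM. Markers of small pre-B cells were uneven: Cxcr4 had 717 ± 28.5 TPM and Irf4 154 ± 5.88, whereas Cd2 and Il2ra (CD25), which appear on small pre-B cells, had 18.6 ± 1.56 and 3.15 ± 0.43.

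Markers of the immature and mature stages were uneven. All but 1 of the 21 had more than 3 counts in every library, 14 had a mean of at least 10 TPM and the median was 39.2 TPM. Cd74, the invariant chain of MHC class II, had 612 ± 36.2 TPM, Tnfrsf13b (TACI) 136 ± 5.47 and H2-Ab1, a chain of MHC class II, 114 ± 4.63. Ighd, the δ heavy chain of mature B cells, had 50.2 ± 1.38 TPM, and the ratio of Ighm to Ighd in TPM was 138 to 153. Ms4a1 (CD20) had 22.5 ± 1.44 TPM and Cd40 3.07 ± 0.47. Cr2 (CD21) had 0.44 ± 0.08 TPM and Fcer2a (CD23) had 2 to 4 counts per library. Of the 6 plasma cell genes, 3 were above 100 TPM, Mzb1 at 462 ± 21.2, Sdc1 (CD138) at 159 ± 3.17 and Xbp1 at 141 ± 1.5. The other 3 were low, with Prdm1 (Blimp-1) at 4.50 ± 0.54 TPM, Jchain at 2.05 ± 0.44 and Tnfrsf17 at 0 or 1 count.

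Light chain transcripts were scarce beside the heavy chain. Igkc, the κ constant region, had 629 ± 21.9 TPM, and the ratio of Ighm to Igkc was 11.3 to 12.2, while Igll1 exceeded Igkc by 1.76 to 1.84 times in every library. Iglc1, Iglc2 and Iglc3, the λ constant regions, were lower still, with Iglc1 between 24.1 and 36.3 TPM and means of 5.42 for Iglc2 and 14.2 for Iglc3, and Igll1 and Iglc1 shared none of their 50-base windows. Heavy chain variable segments were used broadly. Of 149 segments, 84 to 95 had more than 3 counts in a library, and the most used 1 took 3.33 to 4.91% of 2216 to 2852 counts. It was Ighv8-8, Ighv9-3 or Ighv5-17, depending on the library. The chi-square per degree of freedom of segment usage was 0.967 to 1.27 between replicates (3 pairs) and 0.796 to 1.48 between constructs (12 pairs), where 1 is the value of counting noise. Short variable segments share sequence with each other, so counts of single segments are uncertain. The κ variable segments had 270 to 354 counts per library, and Igkv14-111 took 9.6 to 13% of them.

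**Figure D2:**
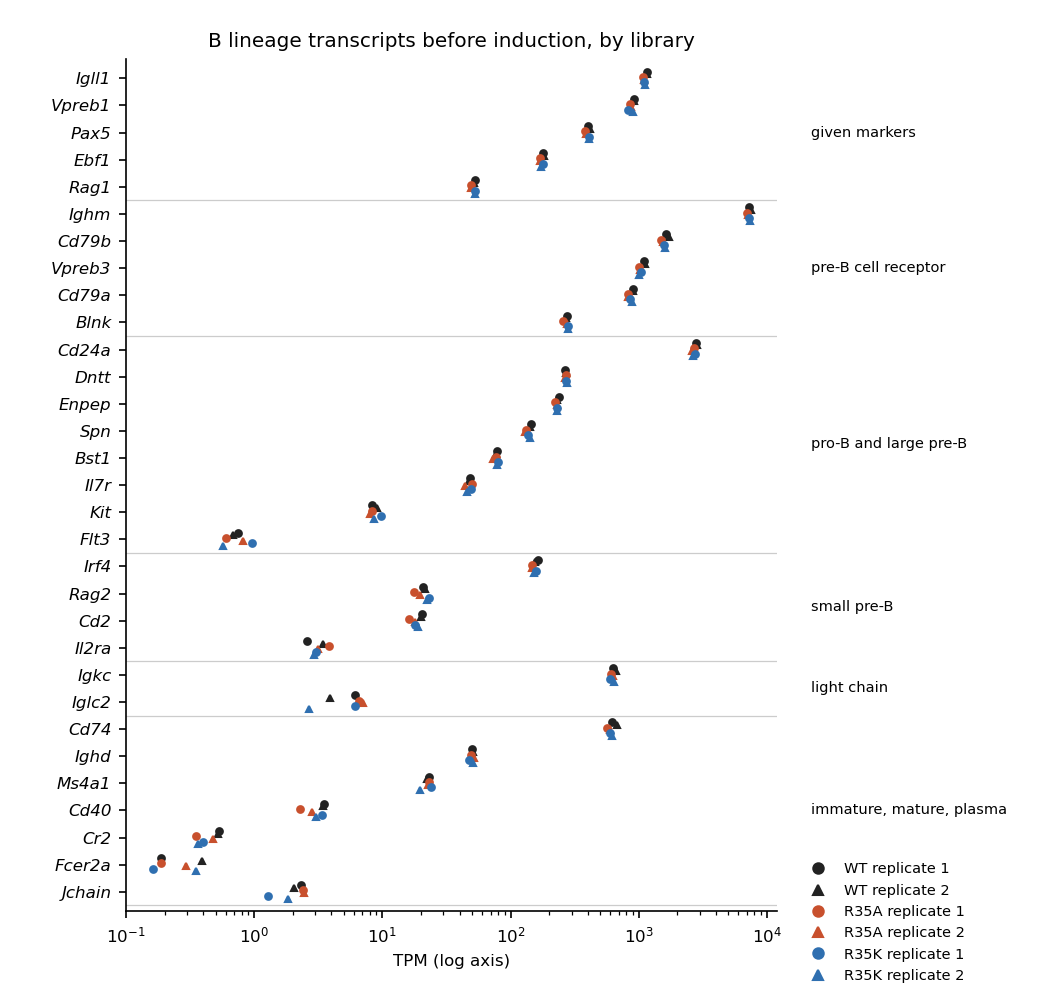
TPM of B lineage transcripts in each of the 6 uninduced libraries on a log axis, grouped by stage, with colours for constructs and shapes for replicates. Ighm, Cd24a, Cd79b and Igll1 lie above 1000 TPM, whereas Flt3, Cr2 and Fcer2a lie below 1 TPM. The libraries of the 3 constructs overlie each other on this scale, except for scatter among the lowest transcripts.

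Transcripts of dividing cells were abundant. All 23 genes of DNA replication and all 20 of mitosis had more than 3 counts in every library, with summed levels of 3688 to 3949 and 2917 to 3056 TPM. Mki67, the proliferation antigen, had 540 ± 19.6 TPM, Top2a 366 ± 9.58, Mcm5, a subunit of the replicative helicase, 430 ± 17.2 and Rrm2, a subunit of ribonucleotide reductase, 418 ± 8.37. Cdkn1a (p21), an inhibitor of cyclin-dependent kinases and a target of p53, had 1722 ± 51.5 TPM in the same libraries. Ccnd2 had 198 ± 3.25 TPM and Myc 56.5 ± 3.99. Which cells in the culture the Cdkn1a reads came from was not tested, and the fibroblast feeders had been treated with mitomycin C, which damages DNA.

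Markers of other cell types were read in the same libraries. All 22 fibroblast genes had more than 3 counts in every library, and the 20 with a gene length summed to 10622 and 10977 TPM in WT, 11302 and 11553 in R35A, and 11079 and 11493 in R35K, 1.06 to 1.16% of all TPM. Thbs1 (thrombospondin), Fn1 (fibronectin) and Sparc, proteins of the extracellular matrix, had 2026 ± 53.8, 1784 ± 69.6 and 1133 ± 40.4 TPM, so they stood as high as the surrogate light chain genes. In bulk RNA, fewer cells of a type and less RNA per cell cannot be told apart. The share of each gene's reads that came from feeders was not tested.

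Most markers of other blood cells were at low levels, with exceptions in several lists. The 22 myeloid genes summed to 515 and 511 TPM in WT, 432 and 431 in R35A, and 465 and 478 in R35K, and 18 of 22 had more than 3 counts in every library. Most of this came from S100a9, between 136 and 183 TPM, and Lyz2, between 107 and 125, whereas the integrin gene Itgam (Mac-1), an antigen of macrophages, lay between 1.19 and 1.95 TPM and Csf1r, the M-CSF receptor, between 4.2 and 5.7. The T cell receptor genes Cd3d, Cd3e and Cd3g had 0 to 2 counts, and most of the T cell list's sum of 223 to 233 TPM was Thy1. Natural killer genes summed to 6.30 to 9.49 TPM with Ncr1 at 0 counts, and dendritic cell genes to 3.75 to 4.95 TPM with Cd209a at 0 counts. A count of 0 allows up to 3 counts, and covers counting error only. The 13 erythroid and megakaryocyte genes measured summed to 35.2 to 44.6 TPM, with 2 at a mean of at least 10 TPM and 9 below 1 TPM. Hba-a1 and Hba-a2, the α globins, had 0 counts, but they share 72.3% and 89.3% of their 50-base windows. Reads that map to both may have been left uncounted. Ly6a and Procr made up most of the stem and progenitor list, with Cd34 at 5.9 TPM. Which cells in the culture the Thy1, Ly6a and Procr reads came from was not tested.

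Reads on the genes that the fusion is built from were present at like levels in the 3 groups. Cebpa had 46.7 and 41.6 CPM in WT, 43.3 and 38.0 in R35A, and 42.3 and 40.1 in R35K, so all groups overlapped. The log2 fold change was −0.13 for R35A against WT (SE 0.069, 95% confidence interval −0.27 to 0.0086, edgeR adjusted p = 0.506) and −0.10 for R35K against WT (edgeR adjusted p = 0.827). Esr1, the estrogen receptor gene, had 64.9 and 66.6 CPM in WT, 60.0 and 58.2 in R35A, and 64.5 and 68.9 in R35K. Both R35A libraries lay lowest, at −0.16 against WT (SE 0.052, edgeR adjusted p = 0.225), while R35K lay at 0.02 (edgeR adjusted p = 0.967). These reads can come from the construct, where it holds the same sequence, or from the endogenous gene, and the 2 cannot be told apart. Carm1, an arginine methyltransferase, had a log2 fold change of −0.14 in R35A (edgeR adjusted p = 0.280) and −0.02 in R35K (edgeR adjusted p = 0.976). Cebpe, a C/EBP gene of granulocytes, had 0 to 3 counts.

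The comparison of constructs before E2 asks whether the cells already differed at the start. Differences were small throughout. With edgeR's quasi-likelihood test over 15263 genes, an adjusted p of at most 0.05 and at least a 1.5-fold change, 6 genes were lower and 0 higher in R35A than in WT (0.0393% of genes tested). For R35K against WT the numbers were 4 lower and 0 higher (0.0262%). At an unadjusted p of at most 0.05 the shares were 10.8% and 6.83% of genes, and DESeq2 called 0 in both. R35K against R35A gave 0 (0%), with 1 gene by adjusted p alone and 0 called by DESeq2. Without adjustment, 957 genes (6.27%) had a p of at most 0.05, 3.18% higher and 3.09% lower. R35K against the mean of WT and R35A also gave 0 (0%), by DESeq2 as well, and 809 genes (5.3%) had an unadjusted p of at most 0.05, with 2.42% higher and 2.88% lower. R35A and R35K were compared with the same WT libraries, so their values are set side by side and are not separate evidence. The R35K counts came from a table of their own, and an effect of the construct and one of the table cannot be told apart.

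The confidence intervals of these comparisons were narrow. They rest on 2 libraries per group and on a spread that the test shares across genes. How they hold for further animals or cultures was not tested. Among the 10902 genes with a mean of at least 5 CPM, the median half-width of the 95% confidence interval was 0.13 on the log2 scale for R35A and for R35K against WT, and 98.1% and 98.5% of them had a fitted difference below 1.2-fold. The common biological coefficient of variation was 2.53%. The study describes its sequencing replicates as biological. The labels do not say whether they came from separate animals or cultures, and the p-values measure the spread between these libraries.

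**Figure D3:**
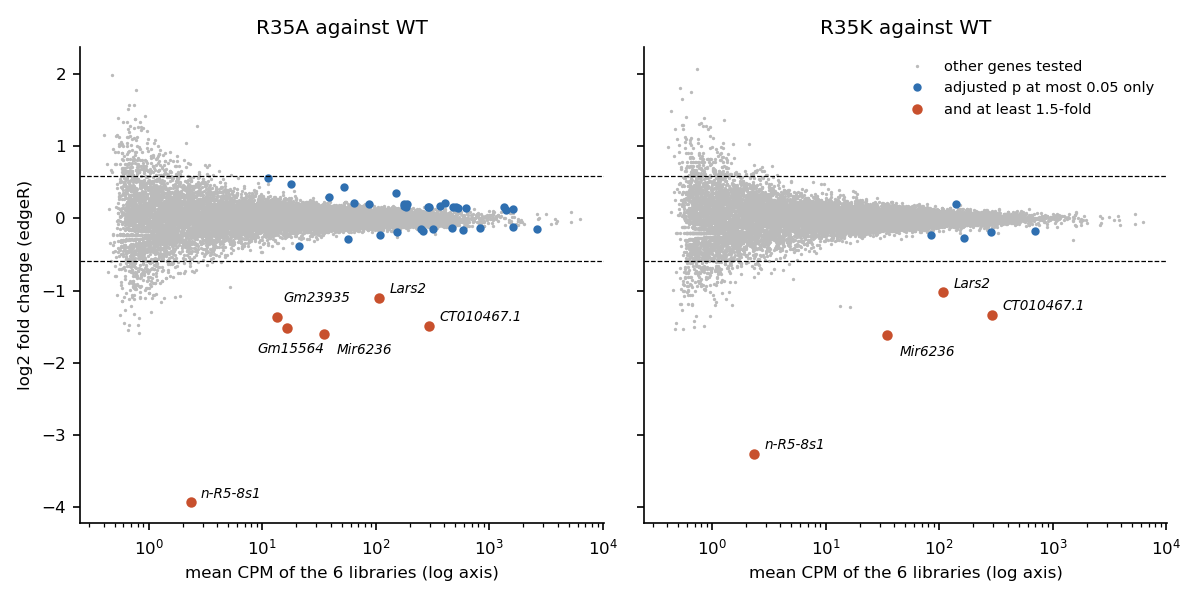
Log2 fold change of each of 15263 genes against mean CPM (log axis) for R35A against WT and R35K against WT, with dashed lines at 1.5-fold. The 6 genes called in R35A and the 4 called in R35K lie below the lower line, and the genes with an adjusted p of at most 0.05 only lie between the lines.

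The genes called lower in the mutants included annotated ribosomal RNA, and their values turned on a single library. CT010467.1 (annotated ribosomal RNA, chr17:39846353-39848827) had 11085 and 2281 counts in WT, 2517 and 3009 in R35A, and 2764 and 3294 in R35K. n-R5-8s1, a 5.8S ribosomal RNA, had 151 and 9 counts in WT, 9 and 3 in R35A, and 7 and 12 in R35K. In both, WT replicate 1 was high, and WT replicate 2 lay among or below the mutant libraries, so the groups overlapped. Lars2 (the mitochondrial leucyl-tRNA synthetase gene, chr9:123366927-123462666) had 3320 and 1060 counts in WT, 1053 and 1331 in R35A, and 1256 and 1228 in R35K. Mir6236 (chr9:110281287-110281409) had 1396 and 279 counts in WT, 298 and 347 in R35A, and 260 and 368 in R35K. Gm15564 (annotated antisense, chr16:35966752-35983230) and Gm23935 (annotated miRNA, chr16:11144125-11144181) were likewise highest in WT replicate 1.

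The 6 genes together took 0.127% of the counts of WT replicate 1 and 0.0289 to 0.0357% of those of the other 5 libraries. Their log2 fold changes in R35A against WT were −1.49 for CT010467.1 and −1.10 for Lars2 (edgeR adjusted p = 0.00307 for each), −1.60 for Mir6236 (edgeR adjusted p = 0.00414) and −3.93 for n-R5-8s1 (edgeR adjusted p = 0.00151). The first 3 stood at −1.33, −1.02 and −1.62 and n-R5-8s1 at −3.26 in R35K against WT, the 4 genes called there. Without WT replicate 1, none of the 6 was called in either comparison, R35A against WT gave 1 call, of another gene, and R35K against WT gave 0. DESeq2 gave no adjusted p to 5 of these 6 genes in R35A against WT.

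**Figure D4:**
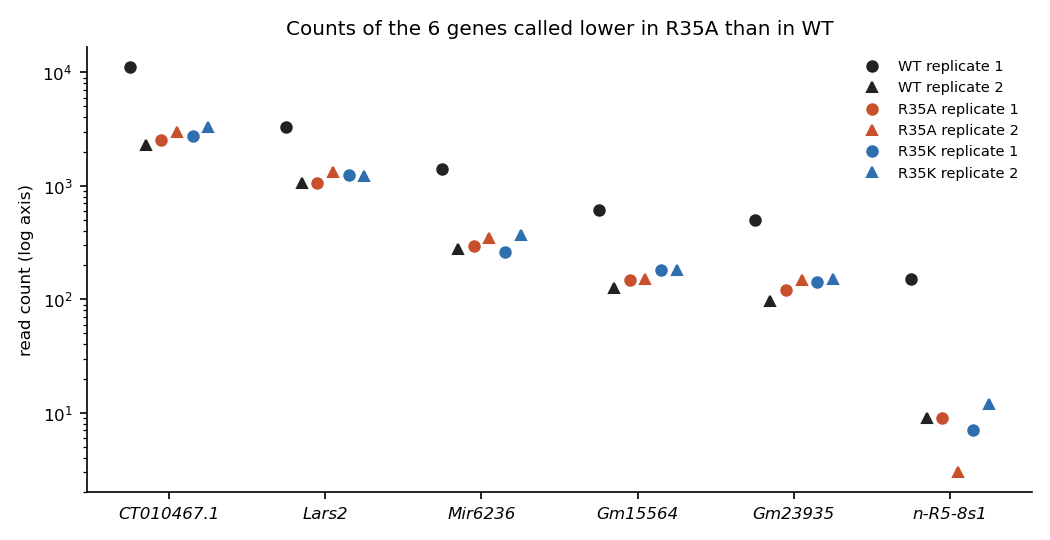
Read counts (log axis) of the 6 genes called lower in R35A than in WT, with 1 point per library. WT replicate 1 is the highest point of every gene, at 11085 counts for CT010467.1, and WT replicate 2 lies with the 4 mutant libraries.

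By adjusted p alone, 40 genes differed between R35A and WT (0.262%), 22 higher (0.144%) and 18 lower (0.118%). The 34 other than the 6 above had absolute log2 fold changes of 0.12 to 0.56 with a median of 0.16. When each of the 6 libraries was left out in turn, 3 of the 40 kept an adjusted p of at most 0.05 throughout (Neat1, Rpl14-ps1 and Meg3). The number that did was 10 without WT replicate 1, 16 without WT replicate 2, 9 without R35A replicate 1 and 14 without R35A replicate 2, and 6 in a fit of all 36 libraries. DESeq2 kept 16 of the 26 to which it gave an adjusted p. Rpl14-ps1 was not among the 6 (edgeR adjusted p = 0.0665 over 36 libraries) and had no adjusted p in DESeq2. Neat1 and Meg3 passed in both. With the replicate number as a term in the fit, 346 genes rather than 40 passed the adjusted p.

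Neat1, the long noncoding RNA that forms paraspeckles, had 136 and 132 CPM in WT, 171 and 170 in R35A, and 152 and 151 in R35K. It rose in R35A by 0.35 on the log2 scale (SE 0.040, edgeR adjusted p = 1.98e-06), the lowest adjusted p of the comparison. Meg3, an imprinted long noncoding RNA, had 378 and 380 CPM in WT, 437 and 438 in R35A, and 418 and 390 in R35K, a rise of 0.21 in R35A (SE 0.034, edgeR adjusted p = 0.00151). Rpl14-ps1, an annotated pseudogene of a ribosomal protein whose reads may belong to its parent gene, had 43.7 and 47.1 CPM in WT, 63.2 and 59.9 in R35A, and 48.9 and 52.5 in R35K. It rose by 0.44 in R35A (SE 0.058, edgeR adjusted p = 3.78e-05). In each of these 3 the R35K libraries lay between the WT and the R35A libraries.

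Among the genes that fell in R35A by adjusted p were those of the B cell receptor's signalling arms. Cd79b had 604 and 630 CPM in WT, 546 and 555 in R35A, and 565 and 584 in R35K, a fall of 0.16 in R35A (SE 0.032, edgeR adjusted p = 0.0103). Cd79a had 337 and 338 CPM in WT, 308 and 302 in R35A, and 314 and 328 in R35K (−0.15 in R35A, edgeR adjusted p = 0.0484). Cd74 fell by 0.17 (edgeR adjusted p = 0.0391), Ly6d, a surface antigen of B cell progenitors, by 0.29 (edgeR adjusted p = 0.00737), Eef1a1 by 0.15 (edgeR adjusted p = 0.00151) and Pcna, the replication clamp, by 0.15 (edgeR adjusted p = 0.0484). S100a9, a calcium-binding protein of neutrophils, fell by 0.38 (edgeR adjusted p = 0.0391). These calls depended on single libraries. Over the 6 fits with 1 library left out, the edgeR adjusted p ranged from 0.00317 to 0.249 for Cd79b (highest without WT replicate 2), from 0.00813 to 0.467 for Cd74 (highest without WT replicate 2) and from 0.0260 to 0.272 for Cd79a (highest without R35A replicate 2). In the fit of all 36 libraries the edgeR adjusted p was 0.0547, 0.0992 and 0.101.

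Among the genes that rose in R35A were Bgn (biglycan, a matrix proteoglycan of fibroblasts), at 1506 and 1562 CPM in WT, 1661 and 1686 in R35A, and 1616 and 1630 in R35K. Its rise was 0.13 (edgeR adjusted p = 0.0235), and its adjusted p was 0.443 without WT replicate 1. Slc6a8, the creatine transporter, had 164 and 162 CPM in WT, 187 and 188 in R35A, and 178 and 179 in R35K (0.20 in R35A, edgeR adjusted p = 0.00737). Spp1 (osteopontin) had 495 and 492 CPM in WT, 560 and 542 in R35A, and 489 and 487 in R35K. It was the only gene past the adjusted p in R35K against R35A (0.00655% of genes tested). Spp1 was lower in R35K by a log2 difference of −0.17 (SE 0.031, edgeR adjusted p = 0.0284), and it rose by 0.16 in R35A against WT (edgeR adjusted p = 0.0118). Neither difference kept its adjusted p in every fit with 1 library left out. Over these fits the values were −0.20 to −0.15 and 0.14 to 0.18, in the same order.

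In R35K against WT, 9 genes passed the adjusted p alone (0.059%), 1 higher (0.00655%) and 8 lower (0.0524%). Beside the 4 genes described above, ribosomal protein genes fell. Rplp1 had 735 and 756 CPM in WT, 680 and 707 in R35A, and 664 and 656 in R35K (edgeR adjusted p = 0.00940 in R35K), and Rpl30 fell by 0.27 (edgeR adjusted p = 0.00940). Snrpe, a core protein of the spliceosome, fell by 0.23 (edgeR adjusted p = 0.0455). Nr1d1 (Rev-erbα, a repressor of the circadian clock) had 127 and 132 CPM in WT, 145 and 148 in R35A, and 145 and 152 in R35K, a rise of 0.20 in R35K (edgeR adjusted p = 0.0455). None of the 9 kept its adjusted p without WT replicate 1. Over the full list of 84 ribosomal protein genes tested, 2 were higher and 26 lower in R35K at an unadjusted p of at most 0.05, with a median log2 fold change of −0.06, where 3.2% of all genes were higher and 3.63% lower. In R35A 1 was higher and 26 lower, with a median of −0.05, where all genes gave 5.39% in each direction.

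The lists of B cell genes lay slightly below WT in R35A, by less than 1.5-fold for every member that was called by adjusted p. All 5 starting markers were below WT, by log2 fold changes of −0.12 to −0.10, and 0 of 5 passed the adjusted p. Pax5 stood at −0.11 (SE 0.028, 95% confidence interval −0.16 to −0.049, edgeR adjusted p = 0.0944) and Igll1 at −0.12 (edgeR adjusted p = 0.0800). In R35K against WT the same genes stood at −0.03 for Pax5 (edgeR adjusted p = 0.883) and −0.09 for Igll1 (edgeR adjusted p = 0.474). At an unadjusted p of at most 0.05, which 5.39% of all genes passed in each direction in R35A against WT, the pre-B cell receptor list had 0 higher and 11 lower of 18, with a median of −0.08. Of these 18, Cd79a and Cd79b passed the adjusted p. The B lineage transcription factors had 1 higher and 12 lower of 27 (median −0.06), and 0 passed the adjusted p. The small pre-B list had 0 higher and 7 lower of 11 (median −0.12), and DNA replication 1 higher and 12 lower of 23 (median −0.08), of which only Pcna passed the adjusted p. The median over all genes tested was within 0.0003 of 0 on this scale. The lists share members, as Rag1 and Igll1 stand in several, and their genes are not independent.

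Other lists lay above WT. The feeder fibroblast list had 11 higher and 0 lower of 22 at an unadjusted p of at most 0.05 in R35A (median 0.09), 21 of the 22 had a positive log2 fold change and only Bgn passed the adjusted p. In R35K it had 6 higher and 0 lower (median 0.03), against 3.2% of all genes higher and 3.63% lower. Fn1 stood at 0.09 in R35A (edgeR adjusted p = 0.0951). The immediate early and heat shock list, genes that respond within minutes to handling or stimulation, had 8 higher and 0 lower of 23 in R35A (median 0.09) and 5 higher and 0 lower in R35K (median 0.05). Egr1 was at 219 and 220 CPM in WT, 241 and 236 in R35A, and 226 and 238 in R35K (0.12 in R35A, edgeR adjusted p = 0.179). The fibroblast sum was 10622 and 10977 TPM in WT and 11302 and 11553 in R35A, while the summed level of the pre-B cell receptor list was 15643 and 16112 TPM in WT and 14859 and 15119 in R35A. The 2 sums moved in opposite directions, and the part of one in the other was not tested.

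The myeloid list, the programme that C/EBPα switches on after induction, had medians below WT in both mutants before induction. At an unadjusted p of at most 0.05 it had 1 higher and 5 lower of 18 in R35A (median −0.20). In R35K it had 1 higher and 4 lower (median −0.11). All genes gave 5.39% in each direction in R35A, and 3.2% higher and 3.63% lower in R35K. S100a9 in R35A was the only member past the adjusted p. The summed level of the myeloid list was 431 to 515 TPM over the 6 libraries, with a median of 3.097 TPM over its 22 genes. Only 2 of these genes reached a mean of 100 TPM, and the list medians carry no SE. The lists of interferon-stimulated, hypoxia and cholesterol genes had 0 to 2 members past an unadjusted p of 0.05 in either comparison. The V(D)J recombination list had 0 higher and 5 lower of 15 in R35A (median −0.03), and IL-7 signalling 1 higher and 1 lower of 19 (median −0.02). Of all these lists no member was called at 1.5-fold in either comparison.

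**Figure D5:**
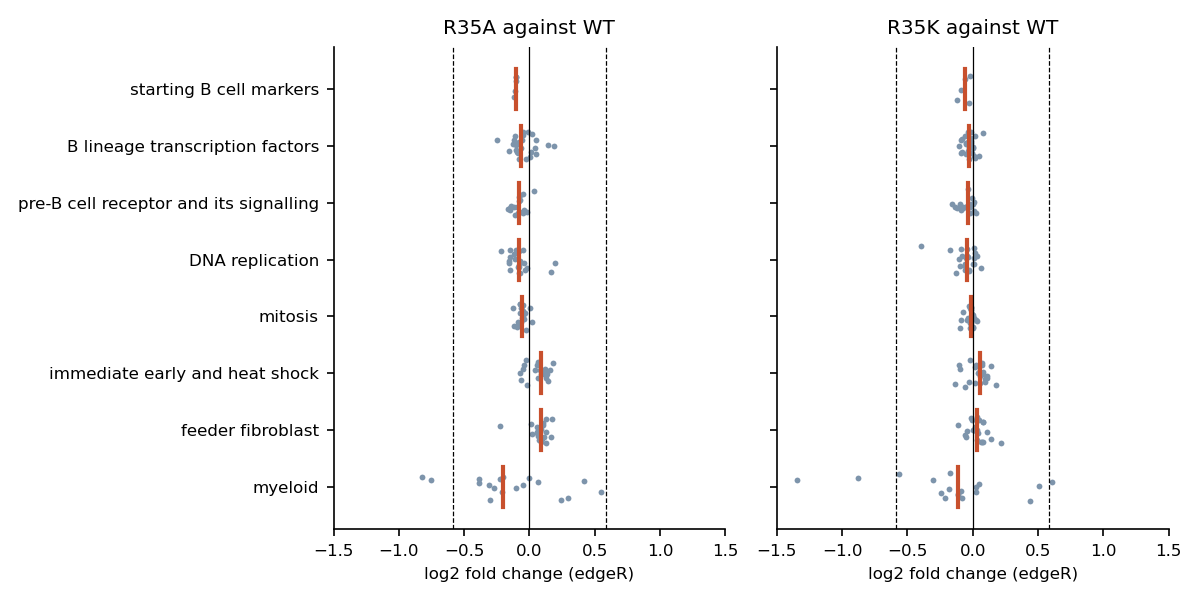
Log2 fold change of each member of 8 gene lists for R35A against WT and R35K against WT, with 1 point per gene, red bars at list medians and dashed lines at 1.5-fold. In R35A the starting markers (median −0.11) lie left of 0 and the feeder fibroblast list (median 0.09) right of 0. The points outside the dashed lines are myeloid genes that did not pass the test.

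The start was also read through the genes that respond within 1 hr of induction, to see whether the response had begun without E2. For each mutant the 200 called genes with the highest and the 200 with the lowest fold change from 0 to 1 hpi were taken, and they were read at 0 hpi in the other mutant against WT, in a mutant that had not chosen them. By unadjusted p, 3.2% of all genes were higher and 3.63% lower in R35K, and 5.39% each way in R35A. Of the genes induced in R35A, 79 were tested in R35K against WT, with 3 higher and 1 lower by unadjusted p and a median of 0.07 at a median SE of 0.31. Of the genes induced in R35K, 87 were tested in R35A against WT, with 3 higher and 2 lower and a median of −0.01. The genes repressed in R35K, 198 tested, had 2 higher and 31 lower in R35A, with 57 positive and 141 negative values and a median of −0.10. Those repressed in R35A, 198 tested, had 6 higher and 14 lower in R35K, with a median of −0.05. In none of the 4 lists was a gene called at 1.5-fold. The other induced genes did not pass the low-count filter at 0 hpi, and of those tested 13 in each list had a mean of at least 5 CPM, with medians of 0.05 in R35K and −0.05 in R35A. The summed fibroblast level differed between WT and R35A as given above, and its part in these medians was not tested.

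The distance to the end of BMT puts these differences in scale, with levels here in CPM of the library total without TMM, as a description with no test. Pax5 went from 926 ± 9.98 (SD, n = 2) at 0 hpi to 1.16 at 120 hpi in WT, from 863 to 1.30 in R35A and from 909 to 0.685 in R35K. Igll1 went from 645 to 0.483, from 597 to 0.534 and from 608 to 0.395 in the same order. Lyz2, the lysozyme gene of macrophages, went from 39.0 to 9336 in WT, from 36.4 to 17378 in R35A and from 39.8 to 14151 in R35K. The uninduced libraries lay within 1.081-fold of each other in the summed TPM of the B cell markers given above. By these CPM values they lay far from the macrophage end point in each construct.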

How the data were processed

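RNA was measured by stranded sequencing of polyadenylated RNA (single-end, 50 bp). Per the labels and the study's methods, the authors made a FastQC check, used STAR 2.5.0a with mm10 for alignment and gene counts, and normalized with DESeq2 1.14.1. The annotation release and the strand column are not given in the sources used here. The deposited count tables hold whole, unnormalized counts of 40354 genes. The deposited log2 tables of normalized counts were not used. Every library was matched by column name to its title, and 0 columns were left unused.

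The 6 libraries at 0 hpi were fitted together in 3 groups with edgeR 4.0.16 in R 4.3.3 (filterByExpr, TMM, quasi-likelihood F test), which kept 15263 genes. A gene was called at a 1.5-fold change and a p of at most 0.05 after Benjamini-Hochberg adjustment. SEs come from the F statistic. TPM was computed here from the counts and the union of exons in GENCODE vM21 (mm10), where 39171 of the symbols (97.07%) were found, and CPM from the counts and TMM. A gene with 3 or fewer counts was treated as at the floor.

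Named were members of the lists, the 25 highest transcripts by TPM, for R35K against the mean the genes called (0), and for R35A against WT the 10 genes with the lowest p and a mean CPM of at least 5. Other genes (those called, Spp1 and those past the adjusted p alone) were named after their values were seen. The members, lists and tests were chosen with earlier results of these data known.

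The fits were tested on simulated data with known changes. Bcl11b and Hbb-bs of the marker lists were not analysed here, and some genes that passed a test are not reported here. Alternatives were DESeq2 1.42.0, its size factors, other filters and thresholds, other sets of libraries, a replicate block and each library left out, in which case a lone replicate was assumed to vary like the other groups.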

Additional observations from a re-analysis of the deposited data

How the results depend on the processing

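Counts of called genes were low in every comparison and depended on the setting. For R35A against WT (6 in the report), R35K against WT (4), R35K against R35A (0) and R35K against the mean of WT and R35A (0), they were 20, 9, 13 and 3 with no low-count filter, and 195, 157, 155 and 118 with an unadjusted p and the 1.5-fold threshold. Adjusted p with no fold threshold gave 40, 9 and 1 in the first 3. DESeq2 gave 0 for both mutants against WT, and so did a fit of all 36 libraries, which gave 1 (Mmp8) for R35K against R35A. That comparison also gave 1 under a filter of 10 counts and 1 in a fit of the constructs compared alone. R35A against WT gave 0 without the 6 genes called lower (added after the data were seen), which follows by construction, since they were all its calls. The causes of these shifts were not tested. Leaving out 1 library at a time gave 1 to 8 calls for R35A against WT, 0 to 11 for R35K against WT, 0 to 3 for R35K against R35A and 0 to 7 for R35K against the mean. Without WT replicate 1 the log2 fold change of CT010467.1 turned to 0.0287 in R35A and 0.18 in R35K against WT, and that of Gm23935 to 0.22 in R35A. Their lowest values, without WT replicate 2, were −2.21, −2.05 and −2.09. The summed TPM of the 5 starting markers, 2637 on average, was 2502 with the longest transcript as length and 2616 to 2657 with a library left out.

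The labels do not say whether the replicate numbers pair the libraries, and the values here cannot decide it. Deviations of same-numbered libraries from their group means correlated at 0.0835 (WT and R35A), 0.0462 (WT and R35K) and 0.123 (R35A and R35K) over 10902 genes, which are not independent. With the replicate block the calls were 15, 9, 3 and 2 in the same order. By adjusted p alone the block gave 346, 83, 51 and 16 genes, against 40, 9, 1 and 0 without it. With 2 libraries per group the number of libraries limits the precision.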

Other observations

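Reads of both sexes were present in every uninduced library. Xist, the RNA of the inactive X chromosome, had 187.8 ± 6.7 TPM (SD, n = 6), and the Y-linked genes Ddx3y and Eif2s3y had 56.4 and 63.8 TPM. The study's methods, rather than the labels, describe a balanced use of female and male mice. The share of these reads that came from feeders was not tested.

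Ighg2b, the γ2b constant region, had 163 ± 6.67 TPM, above Ighd at 50.2 TPM. Over the 6 libraries together the heavy chain variable segments with the highest shares were Ighv9-3 at 3.77%, Ighv8-8 at 3.75% and Ighv5-2 at 3.27%.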
